A study of Mus musculus with 50 samples.

Results

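Interferon-response genes and the genes of class I antigen processing were followed as a set of 37 genes in mouse fat and muscle after activation of the neurons that carry Gfral, the receptor of the hormone GDF15. The 37 were picked by gene symbol from the 55401 genes of the fat table at 6 h and were found in the other tables through their gene identifiers. Levels came from 3′ mRNA sequencing (QuantSeq FWD), which reads the 3′ ends of polyadenylated RNA, as raw gene counts in 50 libraries of male mice. All mice carried an allele for hM3DGq, a designer receptor that responds to clozapine N-oxide (CNO). In TG mice a Gfral-Cre driver was present, and in WT mice there was no Cre. Both genotypes received CNO at 1 mg/kg, and no group without CNO was included, so each comparison is TG against WT after CNO. The sets were quadriceps muscle of mice that underwent a clamp (10 TG, 10 WT), perigonadal white fat (pgWAT) taken 1 h after the CNO dose (9 TG, 9 WT) and pgWAT taken after 6 h (6 TG, 6 WT). The labels do not say whether replicates of a group came from separate mice, so p-values measure the spread between these libraries, which may be technical. Libraries of the 1 h fat and of quadriceps carried molecular identifiers from an added kit module and those of 6 h did not, so that time in fat cannot be told apart from library preparation. Levels are in CPM, gene counts scaled to the effective library size, and are compared within a set only.

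Interferons are cytokines that bind cell surface receptors and, through Janus kinases and STAT proteins, switch on a common set of genes. Type I interferons act mainly through a complex with STAT2 and IRF9 that binds the interferon-stimulated response element (ISRE). Interferon gamma acts mainly through the gamma-activated site (GAS) and induces Irf1. The induced genes include large GTPases that attack vesicles around pathogens, proteins that block viral RNA, and the machinery that cuts proteins into peptides, carries the peptides into the endoplasmic reticulum and loads them on class I molecules for display to CD8+ T cells. In fat, adipocytes, stromal cells, endothelium and resident leukocytes can all express parts of this programme.

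Promoter sequence was available for 32 of the 37 genes in RefSeq (GRCm38.p6), as windows of 300 bases that run from 250 bases before a start site to 50 after it. ISRE was searched on both strands as TTTC, then 2 bases of any kind, then TTTC, and GAS as TTCNNNGAA, which reads the same on both strands. An ISRE match lay in at least 1 window of 15 of the 32 genes (46.9%), against 3.99% of all 27025 genes with such a window. A GAS match lay in 10 of the 32 (31.2%), against 9.55% of all genes. The windows below are those of Irf1, of the GTPase genes with matches to both motifs and the changes described further on, of Isg15 and of B2m, which holds an ISRE match but did not pass the test in any tissue. Capitals mark the matches, which in Isg15 are 3 overlapping ISRE matches. A match is a string of letters and was not tested as a binding site.
Irf1 promoter, chr11:53769764-53770063, plus strand: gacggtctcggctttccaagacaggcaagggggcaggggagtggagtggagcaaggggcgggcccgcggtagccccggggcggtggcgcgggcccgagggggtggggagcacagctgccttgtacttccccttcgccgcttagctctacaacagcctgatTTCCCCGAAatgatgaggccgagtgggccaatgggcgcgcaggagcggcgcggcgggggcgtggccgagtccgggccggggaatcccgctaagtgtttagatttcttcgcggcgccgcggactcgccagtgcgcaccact
Gbp5 promoter, chr3:142496684-142496983, plus strand: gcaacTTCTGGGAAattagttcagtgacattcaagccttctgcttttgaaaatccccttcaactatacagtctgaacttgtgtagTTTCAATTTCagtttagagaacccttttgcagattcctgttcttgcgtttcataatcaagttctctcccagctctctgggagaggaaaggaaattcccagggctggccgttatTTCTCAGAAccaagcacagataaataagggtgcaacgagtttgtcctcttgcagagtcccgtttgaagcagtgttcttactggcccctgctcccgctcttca
Gbp7 promoter, chr3:142530086-142530385, plus strand: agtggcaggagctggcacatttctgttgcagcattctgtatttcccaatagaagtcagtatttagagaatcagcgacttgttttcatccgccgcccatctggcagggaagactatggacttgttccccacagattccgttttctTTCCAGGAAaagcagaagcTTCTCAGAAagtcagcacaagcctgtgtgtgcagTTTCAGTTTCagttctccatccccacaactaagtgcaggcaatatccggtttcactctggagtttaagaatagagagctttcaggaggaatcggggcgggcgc
Igtp promoter, chr11:58199306-58199605, plus strand: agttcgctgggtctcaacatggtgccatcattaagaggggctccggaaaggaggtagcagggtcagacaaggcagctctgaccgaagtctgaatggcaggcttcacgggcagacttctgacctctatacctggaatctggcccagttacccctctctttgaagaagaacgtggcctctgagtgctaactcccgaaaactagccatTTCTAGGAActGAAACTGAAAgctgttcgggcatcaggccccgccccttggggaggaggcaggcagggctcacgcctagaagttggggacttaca
Irgm2 promoter, chr11:58214727-58215026, plus strand: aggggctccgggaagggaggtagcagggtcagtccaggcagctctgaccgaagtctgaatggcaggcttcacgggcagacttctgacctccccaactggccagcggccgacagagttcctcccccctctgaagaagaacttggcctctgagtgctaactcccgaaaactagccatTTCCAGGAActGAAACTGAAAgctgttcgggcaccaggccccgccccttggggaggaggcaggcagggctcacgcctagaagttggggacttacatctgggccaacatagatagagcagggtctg
Isg15 promoter, chr4:156200769-156201068, minus strand: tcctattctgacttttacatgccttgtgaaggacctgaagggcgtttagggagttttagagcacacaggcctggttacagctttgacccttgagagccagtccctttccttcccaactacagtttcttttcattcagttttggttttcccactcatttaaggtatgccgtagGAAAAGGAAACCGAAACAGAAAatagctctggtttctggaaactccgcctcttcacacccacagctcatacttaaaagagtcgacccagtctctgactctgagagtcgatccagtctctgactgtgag
B2m promoter, chr2:122147437-122147736, plus strand: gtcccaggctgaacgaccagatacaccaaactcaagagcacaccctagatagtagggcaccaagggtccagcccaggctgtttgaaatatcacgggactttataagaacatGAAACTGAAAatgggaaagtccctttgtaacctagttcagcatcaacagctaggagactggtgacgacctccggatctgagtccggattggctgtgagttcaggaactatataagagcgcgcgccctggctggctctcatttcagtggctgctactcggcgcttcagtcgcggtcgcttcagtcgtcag

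**Figure D1:**
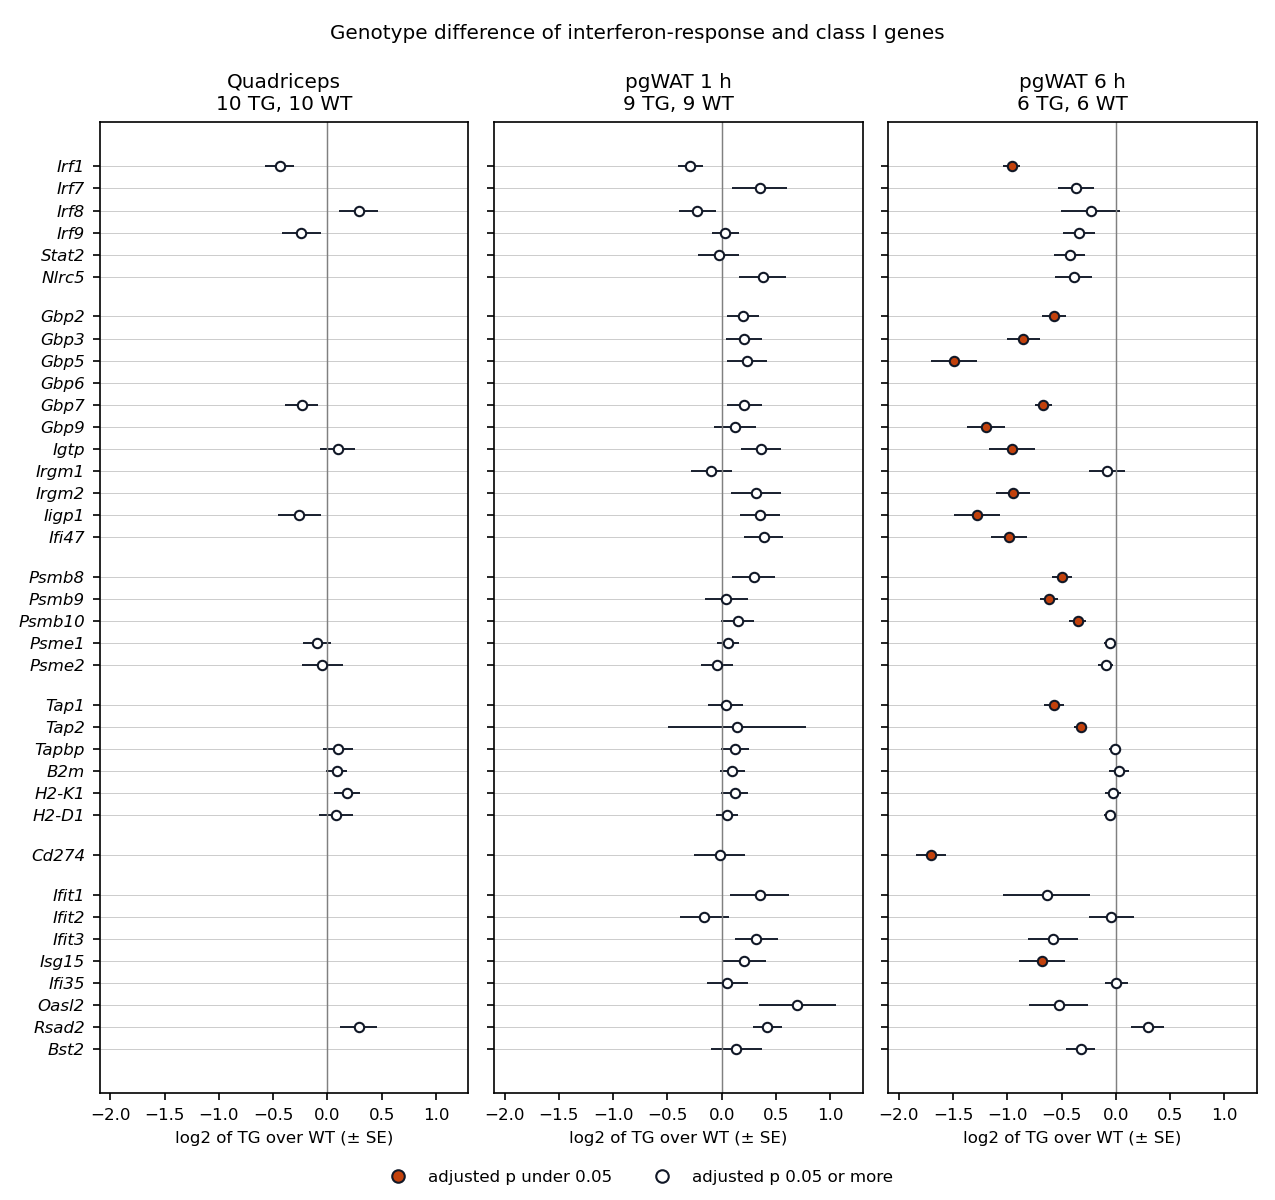
Difference between TG and WT for each gene (log2 of TG over WT, bars are ± SE of the fit), by role from top to bottom, in quadriceps, pgWAT at 1 h and pgWAT at 6 h. Filled points passed the test, and genes with no point were too low to be tested. Of the filled points all 17 lie in the 6 h panel, left of 0.

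At 6 h after CNO much of the interferon set was lower in TG fat, led by GTPases and Cd274. Of the 36 genes tested, 17 were lower in TG at an edgeR Benjamini-Hochberg adjusted p under 0.05 and 0 were higher, against 14.4% of all 14359 genes called in either direction, 7.54% called lower and 6.88% called higher. The median difference of the 36 genes was -0.46 on the log2 scale, with 33 below 0, against a median of 0.00 and 49.8% below 0 over all genes. In 13 genes every TG library lay below every WT library, against 3.75% of all genes, and in 0 above every WT library, against 3.93%. The 17 lower genes were 9 of 10 interferon-inducible GTPases, 3 of 5 proteasome genes, 2 of 6 genes of peptide transport, loading and class I molecules, 1 of 6 transcription factors, 1 of 8 antiviral effectors and the checkpoint ligand Cd274. Gbp6, a large GTPase, had 96 counts in all 12 libraries and was not tested, with 0.639 to 1.17 CPM in TG and 0 to 1.47 CPM in WT. In bulk tissue, fewer cells of a type and less RNA per cell cannot be told apart.

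In WT 1 library stood above its group. WT 5 had the highest level of the 6 WT libraries in 27 of the 36 genes, as the heat map of the 6 h libraries shows. Without WT 5 the edgeR test called 16 genes, all of them among the 17, and the median was -0.32. TG 2 stood out in liver genes, with a summed level of 8 such genes of 1455 CPM, against 47.5 to 76.7 CPM in the other TG libraries and 42.2 to 81.04 CPM in WT. Without TG 2 the 17 calls remained.

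**Figure D2:**
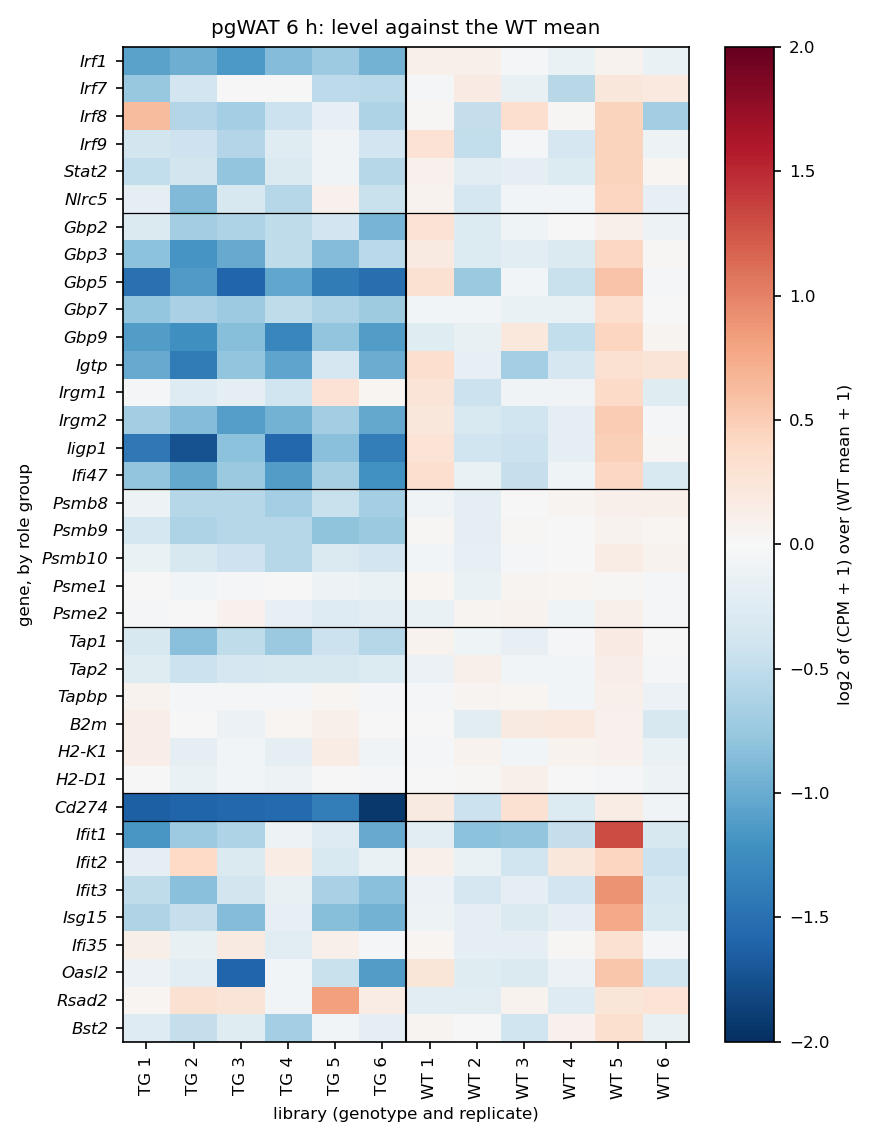
Level of the 36 tested genes in each pgWAT library at 6 h, as log2 of (CPM + 1) over (WT mean + 1), with TG libraries left of the line and WT libraries right of it. The rows of Cd274, Gbp5, Gbp9 and Iigp1 are blue in all 6 TG libraries, and the column of WT 5 is red in most rows.

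Among the transcription factors Irf1 changed. Irf1, itself induced by interferon gamma, drives the promoters of many class I and GTPase genes. Its lowest, median and highest levels were 38.5, 43.8 and 51.9 CPM in TG and 78.6, 87.5 and 92.6 CPM in WT. All 6 TG libraries lay below all 6 WT libraries, and the log2 difference was -0.96 (SE 0.08, edgeR adjusted p = 2.06e-07), which is 0.514 of the WT level. The call was kept in every alternative fit. Irf1 lies at chr11:53770014-53778374 on the plus strand (GENCODE vM21, GRCm38), and its window above holds 1 GAS match and no ISRE match.

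The factors of the type I complex were closer to their WT levels. Stat2 ranged over 11.5, 15.2 and 19.7 CPM (lowest, median, highest) in TG and 16.9, 19.7 and 28.4 CPM in WT, so 5 TG libraries lay below the lowest WT library and the groups overlapped. Its difference of -0.43 (SE 0.14) missed the threshold (edgeR adjusted p = 0.0522) and was called by DESeq2 (adjusted p = 0.0366). Irf9, the DNA-binding partner of the complex, had 23.5, 27.3 and 34.0 CPM in TG and 25.0, 33.9 and 49.0 CPM in WT, with a difference of -0.34 (SE 0.15, edgeR adjusted p = 0.151). Irf7, which amplifies type I interferon production, differed by -0.37, Irf8, a factor of myeloid and dendritic cells, by -0.23, and Nlrc5, the transactivator of class I genes, by -0.39, and none of the 3 passed the edgeR test (adjusted p from 0.155 to 0.65).

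The interferon-inducible GTPases had the most calls of the role groups, with 9 of 10 lower and a group median of -0.95. Gbp7, a guanylate-binding protein, had 65.5, 70.1 and 78.99 CPM (lowest, median, highest) in TG and 102, 108 and 142 CPM in WT, a log2 difference of -0.67 (SE 0.08, edgeR adjusted p = 1.77e-05). Gbp5, which promotes inflammasome assembly, had 4.35, 4.91 and 6.82 CPM in TG and 8.67, 14.6 and 22.98 CPM in WT, a difference of -1.49 (SE 0.21, edgeR adjusted p = 1.22e-04). Gbp9 had 4.09, 4.83 and 6.28 CPM in TG and 7.94, 11.3 and 16.0 CPM in WT, a difference of -1.20 (SE 0.18, edgeR adjusted p = 1.41e-04). In these 3 genes the groups did not overlap, and in Gbp5 the WT libraries were spread wider than the TG libraries.

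Iigp1, an immunity-related GTPase that damages the vacuole of Toxoplasma, had 24.7, 31.7 and 47.8 CPM in TG and 63.0, 80.8 and 120 CPM in WT. Its log2 difference was -1.28 (SE 0.21, edgeR adjusted p = 0.00129). Ifi47 had 7.01, 8.88 and 10.7 CPM in TG and 12.5, 16.2 and 23.8 CPM in WT, a difference of -0.99 (SE 0.17, edgeR adjusted p = 4.91e-04). Both genes were without overlap between the groups. Irgm2 had 7.40, 8.68 and 10.2 CPM in TG and 12.7, 15.7 and 24.8 CPM in WT, a difference of -0.95 (SE 0.16, edgeR adjusted p = 4.79e-04). Igtp had 6.61, 9.07 and 15.0 CPM in TG and 11.6, 19.95 and 24.4 CPM in WT, a difference of -0.96 (SE 0.21, edgeR adjusted p = 0.00568), with 5 TG libraries below the lowest WT library and 1 inside the WT range. Exons of Igtp and Irgm2 overlap on the plus strand of chromosome 11, so reads that fall in shared exons may be hard to tell apart. The annotated 3′ ends, which the libraries read, lie at 58207591 for Igtp and 58222782 for Irgm2. The promoter windows of the 2 genes also carry the same GAS and ISRE arrangement.

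Gbp2 had 28.4, 37.2 and 44.9 CPM in TG and 45.5, 53.7 and 67.9 CPM in WT, a difference of -0.57 (SE 0.11, edgeR adjusted p = 0.00188). Gbp3 had 7.26, 9.43 and 12.2 CPM in TG and 14.4, 16.7 and 23.9 CPM in WT, a difference of -0.85 (SE 0.16, edgeR adjusted p = 0.00102). The groups did not overlap in either gene. Irgm1, which protects host membranes and holds other GTPases in check, was the exception of the group, with 6.74 to 11.5 CPM in TG and 6.59 to 12.3 CPM in WT and a difference of -0.08 (edgeR adjusted p = 0.803). Guanylate-binding proteins are a family of similar sequences, and Gbp9 shares exons with Gbp4 and Gbp8 on its own strand, so the counts of single family members are less certain than those of the group.

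**Figure D3:**
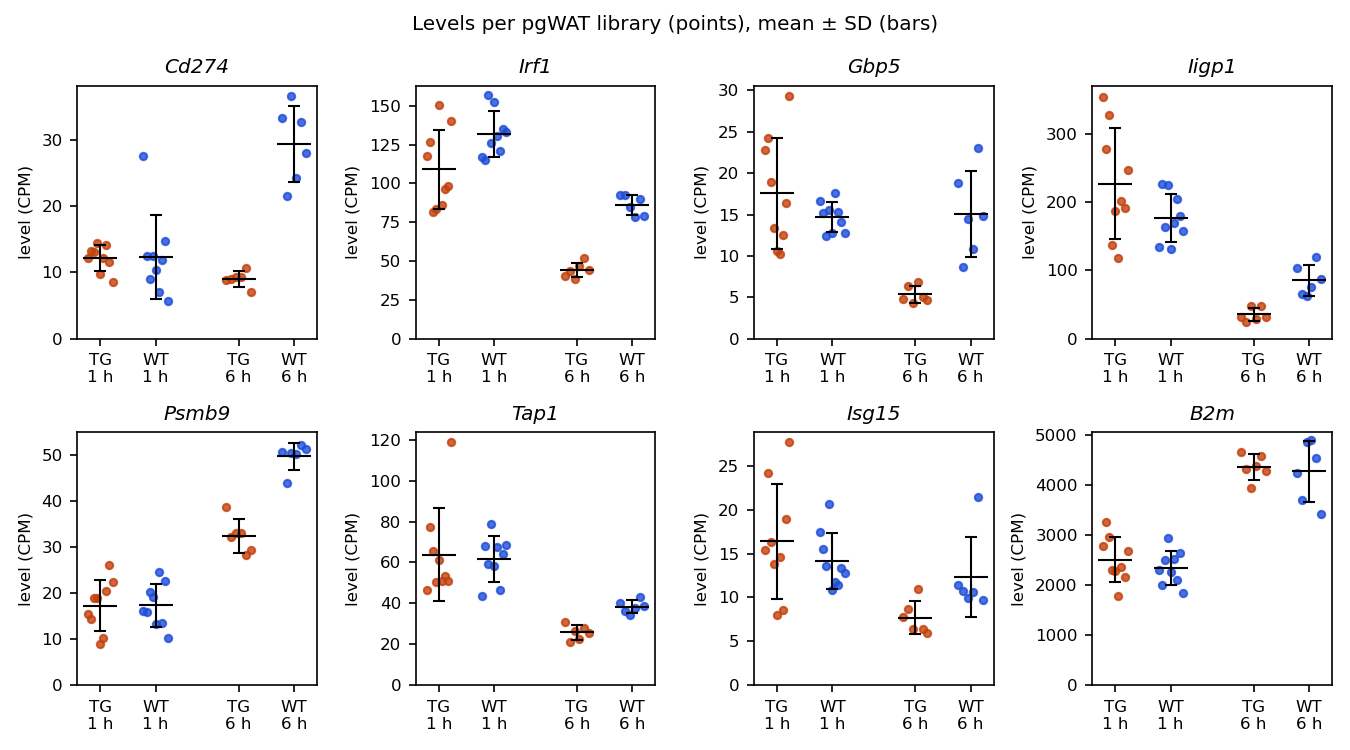
Level of 8 genes in each pgWAT library (CPM, axes start at 0), with the mean ± SD as bars, for TG and WT at 1 h and at 6 h. Kits differ between the times, so groups are to be compared within a time. At 6 h TG lies below WT without overlap in Cd274, Irf1, Gbp5, Iigp1, Psmb9 and Tap1, and the groups overlap in Isg15 and B2m.

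The catalytic subunits of the immunoproteasome, which replace their constitutive counterparts under interferon and change which peptides are cut, were all lower in TG. Psmb9 had 28.2, 32.6 and 38.7 CPM (lowest, median, highest) in TG and 43.9, 50.6 and 52.2 CPM in WT, with no overlap and a log2 difference of -0.62 (SE 0.08, edgeR adjusted p = 3.73e-05). Psmb8 had 50.2, 54.4 and 75.7 CPM in TG and 71.7, 82.4 and 87.6 CPM in WT, a difference of -0.50 (SE 0.09, edgeR adjusted p = 0.00117). Psmb10 had 41.3, 48.0 and 56.5 CPM in TG and 55.0, 61.2 and 68.1 CPM in WT, a difference of -0.35 (SE 0.08, edgeR adjusted p = 0.00438). In Psmb8 and Psmb10 5 TG libraries lay below the lowest WT library and 1 overlapped. The proteasome activator genes Psme1 (-0.05) and Psme2 (-0.09) did not pass the edgeR test (adjusted p = 0.592 and 0.434). Of the constitutive counterparts Psmb5, Psmb6, Psmb7 and Psme3, 0 of 4 passed it, with differences from -0.05 to 0.13, 0 of 4 at an unadjusted p under 0.05.

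The peptide transporter was lower in TG, while the class I genes H2-K1, H2-D1 and B2m were near their WT levels. Tap1, which with Tap2 pumps peptides into the endoplasmic reticulum, had 21.1, 26.1 and 30.7 CPM in TG and 34.1, 38.1 and 43.3 CPM in WT, a log2 difference of -0.57 (SE 0.09, edgeR adjusted p = 3.87e-04). Tap2 had 54.1, 58.5 and 61.6 CPM in TG and 67.6, 71.4 and 80.6 CPM in WT, a difference of -0.33 (SE 0.06, edgeR adjusted p = 0.00135). Neither gene had overlapping groups. H2-D1, a class I heavy chain, had 1017, 1083 and 1124 CPM in TG and 1048, 1119 and 1205 CPM in WT, a difference of -0.05 (SE 0.06, edgeR adjusted p = 0.597). The heavy chain H2-K1 (-0.03, SE 0.07), the light chain B2m (0.03, SE 0.09) and the loading bridge Tapbp (-0.01, SE 0.05) also failed the edgeR test (adjusted p from 0.848 to 0.967), with overlapping groups in each. Psmb9 and Tap1 overlap at their 5′ ends on opposite strands of chromosome 17. The libraries read 3′ ends, which are annotated at 34181987 for Psmb9 and 34197225 for Tap1. Tap2 overlaps predicted genes on the other strand, and the sources do not give the strand setting of the counting.

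Cd274, which encodes PD-L1, the ligand that restrains T cells through PD-1, had the largest fitted difference of the 36 genes. Its levels were 7.01, 9.15 and 10.7 CPM (lowest, median, highest) in TG and 21.6, 30.4 and 36.7 CPM in WT. Every TG library lay far below every WT library, with a mean of 9.02 ± 1.179 CPM in TG and 29.4 ± 5.804 CPM in WT (SD, n = 6 each). The log2 difference was -1.71 (SE 0.14, edgeR adjusted p = 1.99e-07), so TG held 0.307 of the WT level, and leaving out single libraries moved it only from -1.78 to -1.63. The window of Cd274 held no match to either motif.

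The antiviral effectors had 1 call in 8. Isg15, a ubiquitin-like protein that is attached to other proteins under interferon, had 5.96, 7.06 and 10.9 CPM in TG and 9.77, 10.7 and 21.5 CPM in WT. The top WT value is that of WT 5, and 5 TG libraries lay below the lowest WT library. Its log2 difference was -0.68 (SE 0.21, edgeR adjusted p = 0.0367) and was -0.45 without WT 5, where the call was lost. It was also lost without TG 1, 3, 5 or 6 or WT 1 (edgeR adjusted p up to 0.0845).

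Ifit3, which binds Ifit1 and, with it, viral RNA, had 7.81, 9.58 and 13.2 CPM in TG and 11.1, 12.2 and 28.3 CPM in WT, a difference of -0.58 (SE 0.23, edgeR adjusted p = 0.121) that was -0.29 without WT 5. Bst2, the tetherin that holds budding virus at the membrane, had 10.8, 14.9 and 17.2 CPM in TG and 13.4, 18.2 and 22.6 CPM in WT, a difference of -0.32 (SE 0.13, edgeR adjusted p = 0.121). In both genes the groups overlapped. Ifit1 (-0.64, and -0.10 without WT 5) and Oasl2 (-0.53) had wide errors, with SE of 0.40 and 0.27. Ifit2 (-0.04) and Ifi35 (0.00) were near 0. Rsad2, the antiviral enzyme viperin, pointed the other way, with 24.6 to 45.8 CPM in TG and 21.2 to 31.0 CPM in WT and a difference of 0.29 (SE 0.15, edgeR adjusted p = 0.229).

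Upstream genes of the pathway moved in both directions at 6 h. Ifngr1, the ligand-binding chain of the interferon gamma receptor, averaged 407 ± 43.4 CPM in TG and 215 ± 28.2 CPM in WT (SD, n = 6 each), a log2 difference of 0.92 (SE 0.09, edgeR adjusted p = 1.76e-06). Tyk2, a kinase of the type I receptor, averaged 17.1 ± 2.497 CPM in TG and 21.6 ± 1.26 CPM in WT, a difference of -0.33 (SE 0.10, edgeR adjusted p = 0.0319). The interferons themselves could not be compared, because Ifnb1 and Ifna4 had 0 counts in all 12 libraries, which allows up to 0.233 to 0.328 CPM in a library, and Ifng had 13 counts in all.

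Of 8 brakes on the pathway 2 were lower and 1 was higher, against 7.54% of all genes called lower and 6.88% called higher. Socs1, a feedback inhibitor of Janus kinases that interferon gamma induces, averaged 1.05 ± 0.796 CPM in TG and 3.24 ± 1.06 CPM in WT (SD, n = 6 each), a log2 difference of -1.61 (edgeR adjusted p = 0.00599). The phosphatase gene Ptpn6 differed by -0.62 (edgeR adjusted p = 0.0349), and Pias1, an inhibitor of STAT signalling, by 0.61 (edgeR adjusted p = 4.84e-06). Of 13 sensors of nucleic acid and their relays 3 were lower and 1 was higher, against the same shares of all genes. Ifih1, a sensor of viral RNA, differed by -0.49, its relay Mavs by -0.37 and the endosomal RNA receptor Tlr7 by 0.99 (edgeR adjusted p = 0.00324, 0.0106 and 0.00207).

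Other interferon targets, which are not among the 37, were lower in part. Of 28 such genes 22 were tested, 8 were lower and 0 were higher, with 21 below 0 and a median of -0.41. Over all genes 7.54% were called lower and 6.88% called higher. Gbp4 averaged 9.84 ± 3.47 CPM in TG and 27.6 ± 4.33 CPM in WT (SD, n = 6 each), a log2 difference of -1.49 (edgeR adjusted p = 1.47e-04). Parp14 (-0.62) and its neighbour in function Dtx3l (-0.58), which modify proteins by ADP-ribose and ubiquitin, were also lower (edgeR adjusted p = 0.00123 and 0.00169). Among 11 tested class I relatives and loading factors 3 were lower and 0 were higher, the peptide editor Tapbpl (-0.45) and the class I relatives H2-Q7 (-0.60) and H2-Q6 (-0.65), with edgeR adjusted p from 0.00165 to 0.0298 and H2-Q6 and H2-Q7 being close copies of each other.

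Markers of immune cells differed in part with the genotype, where 14.4% of all genes were called in either direction. Of 4 pan-leukocyte markers 1 was lower, Ptprc at -0.71 (edgeR adjusted p = 0.0471), and their summed level ran from 168 to 388 CPM in TG and from 181 to 313 CPM in WT. Of 8 macrophage markers 0 passed the edgeR test, 0 at an unadjusted p under 0.05, with sums of 1121 to 2101 CPM in TG and 1064 to 1537 CPM in WT. Of 6 dendritic cell markers 4 were tested and 2 were lower, Zbtb46 (-0.58, edgeR adjusted p = 0.00599) and Siglech (-0.77, edgeR adjusted p = 0.0487). Among the 4 tested, 1 was above 0 (0.23). The summed level of the list did not overlap, with 23.4 to 29.7 CPM in TG and 31.6 to 45.1 CPM in WT. Of all single genes 3.75% had every TG library below every WT library. Among 5 tested T and NK cell markers Nkg7 was lower (-1.23, edgeR adjusted p = 0.0211), and the sums of that list were 6.84 to 18.98 CPM in TG and 13.1 to 24.2 CPM in WT. Of 2 B cell, 3 neutrophil and 6 endothelial markers tested 0 passed the edgeR test, with 1, 1 and 0 at an unadjusted p under 0.05, and the neutrophil gene Ly6g was at 0 counts. The part of these cells in the interferon set was not tested. TG 1 had the highest pan-leukocyte and macrophage sums of the 12 libraries and also the highest Irf8 and Psmb8 of the TG libraries, and WT 5 had the highest pan-leukocyte and macrophage sums of the WT libraries.

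At 1 h after CNO no gene of the set was called in pgWAT. Of 36 genes tested 0 passed the edgeR test and 0 were called by DESeq2. An unadjusted edgeR p under 0.05 was reached by 3 of the 36, against 512 of all 11087 genes. Over all 11087 genes 0.0722% were called, 0.018% lower and 0.0541% higher. In no gene of the set did every TG library lie below every WT library, against 0.018% of all genes. The median difference was 0.14 with 29 genes above 0, against a median of 0.01 and 47.3% below 0 over all genes. It was 0.09 without TG 9, 0.21 without TG 6, 0.22 without the 5 libraries high in liver or duct genes, and 0.08 with 26 genes above 0 when the remainder of the library number was a factor. TG 9 had the highest level of the 9 TG libraries in 21 of the 36 genes. Iigp1 ran over 118, 201 and 353 CPM (lowest, median, highest) in TG and 131, 169 and 227 CPM in WT, and Cd274 over 8.48, 12.2 and 14.4 CPM in TG and 5.60, 12.0 and 27.6 CPM in WT. In both genes the groups overlapped. The 3 genes with the smallest p were Rsad2 (0.42, SE 0.14), Irf1 (-0.29, SE 0.11) and Ifi47 (0.39, SE 0.18), with edgeR adjusted p of 0.757, 1.00 and 1.00. The library totals at 1 h were from 976610 to 4852560 counts, against 9150496 to 12883462 at 6 h, and the SE was larger for most genes of the set at 1 h.

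The genotype difference at 6 h was then set against that at 1 h in 1 fit over both fat sets with an interaction term. Of 36 genes 11 had a difference that was lower at 6 h than at 1 h and 0 had a higher one, against 4.21% of all 13022 genes called, 2.33% lower and 1.87% higher. The median was -0.67 with 34 genes below 0, against 0.00 and 49.6% over all genes. The test shares its 6 h libraries with the comparison above and is not independent of it. The 11 genes were Cd274, Irf1 and 9 GTPases.

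The largest was Gbp5 at -1.72 (SE 0.29, edgeR adjusted p = 1.72e-04), with 10.2, 16.4 and 29.3 CPM (lowest, median, highest) in TG and 12.4, 15.2 and 17.6 CPM in WT at 1 h, beside the 6 h values above. Cd274 followed at -1.68 (SE 0.29, edgeR adjusted p = 2.91e-04) and Iigp1 at -1.63 (SE 0.29, edgeR adjusted p = 6.41e-04). Irf1 was the smallest at -0.67 (SE 0.15, edgeR adjusted p = 0.00700). It was also the only one of the 11 besides Cd274 whose difference lay below 0 at both times, with 81.5, 98.2 and 150 CPM in TG and 115, 131 and 157 CPM in WT at 1 h. Those ranges overlap, in contrast to the 6 h ranges of Irf1.

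Of the other GTPases Igtp had 25.5, 38.5 and 64.2 CPM in TG and 16.6, 28.1 and 42.5 CPM in WT at 1 h, and Ifi47 had 19.4, 31.1 and 39.3 CPM in TG and 12.2, 21.05 and 30.5 CPM in WT. The 1 h groups overlapped in both. Their interaction values were -1.32 (SE 0.29) and -1.37 (SE 0.26), with edgeR adjusted p of 0.00465 and 8.42e-04. Irgm2 had 7.12, 13.1 and 21.6 CPM in TG and 7.36, 9.73 and 17.7 CPM in WT at 1 h, with an interaction of -1.26 (SE 0.30, edgeR adjusted p = 0.00974). Gbp9 had 7.46, 14.3 and 23.6 CPM in TG and 8.95, 13.5 and 19.1 CPM in WT, with -1.32 (SE 0.27, edgeR adjusted p = 0.00207). TG libraries reached both the lowest and the highest values of the 1 h set in these 2 genes.

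Gbp3 had 18.7, 36.4 and 45.5 CPM in TG and 21.7, 28.4 and 38.8 CPM in WT at 1 h, with an interaction of -1.06 (SE 0.24, edgeR adjusted p = 0.00646). Gbp7 had 52.2, 90.9 and 113 CPM in TG and 41.4, 75.04 and 85.6 CPM in WT, with -0.88 (SE 0.20, edgeR adjusted p = 0.00791). Gbp2 had 28.5, 39.7 and 59.7 CPM in TG and 28.3, 36.6 and 50.2 CPM in WT, with -0.76 (SE 0.20, edgeR adjusted p = 0.0219). All 3 overlapped at 1 h, and the Gbp2 call was lost without TG 6 or WT 1 of the 6 h set (edgeR adjusted p up to 0.0536). Psmb8 (-0.79, edgeR adjusted p = 0.0520) and Psmb9 (-0.68, edgeR adjusted p = 0.0951) missed the threshold.

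In the other lists of the pathway 1 receptor and 1 brake had a higher difference at 6 h than at 1 h. Over all genes 2.33% had a lower difference and 1.87% a higher one. Ifngr1 had an interaction of 0.83 (edgeR adjusted p = 2.64e-04), with 420 ± 70.9 CPM in TG and 393 ± 42.8 CPM in WT at 1 h (SD, n = 9 each), and Pias1 had 0.53 (edgeR adjusted p = 0.0178). Of 20 other interferon-stimulated genes tested 4 were lower and 0 were higher, among them Gbp4 at -1.95, Rtp4 at -0.88 and Parp14 at -0.65 (edgeR adjusted p = 9.94e-05, 0.0154 and 0.0293). Of 11 other class I molecules and loading factors 1 was lower, Tapbpl at -0.52 (edgeR adjusted p = 0.0465). Among the markers 2 B cell genes were tested, with Ms4a1 lower at -3.39 (SE 0.97, edgeR adjusted p = 0.0394) and the other at -0.05. At 6 h Ms4a1 averaged 0.522 ± 0.302 CPM in TG and 3.59 ± 3.37 CPM in WT (SD, n = 6 each), where it was too low to be tested alone. Of 3 inducible heat shock genes Dnajb1 was higher at 0.89 (edgeR adjusted p = 0.0323), and 2 were below 0.

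**Figure D4:**
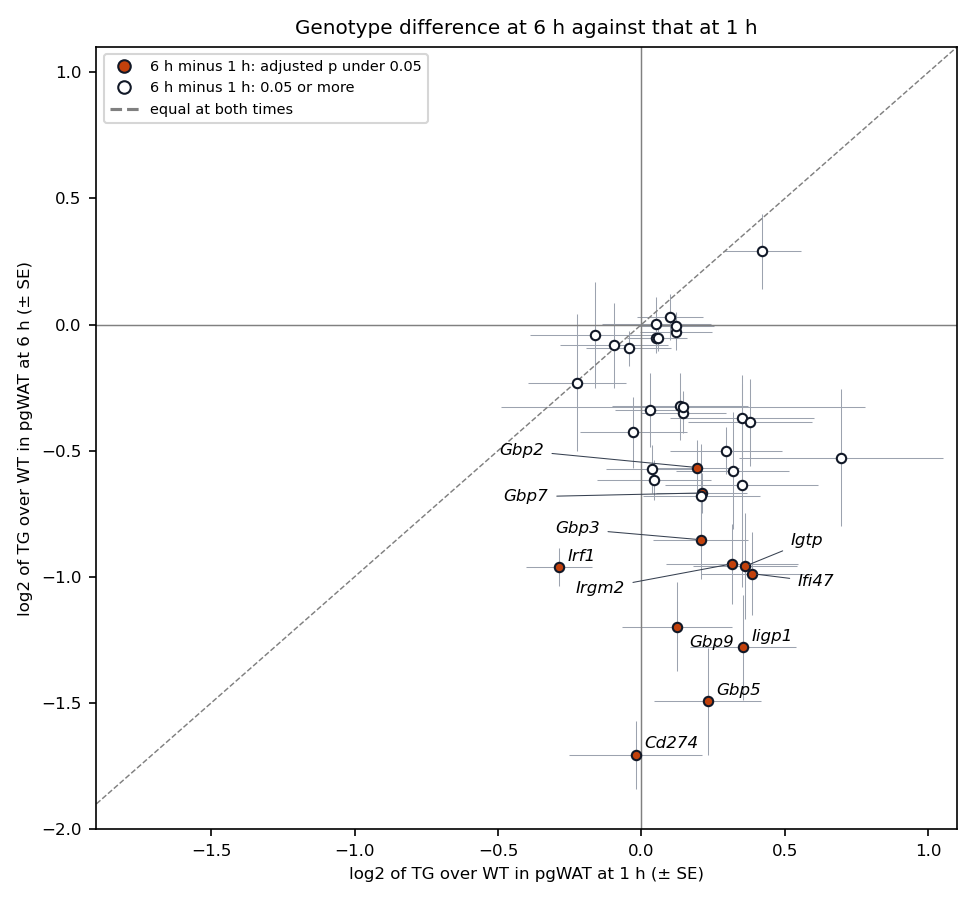
Difference between TG and WT at 6 h (vertical) against that at 1 h (horizontal) for 36 genes, both as log2 of TG over WT with bars of ± SE; filled points passed the interaction test. The 9 filled GTPases lie right of 0 and far below it, Cd274 lies near 0 on the horizontal axis, and Irf1 lies left of 0.

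In quadriceps most of the set was too low to be tested. Of the 37 genes 13 passed the filter on low counts and 24 did not, among them Cd274 with 0 to 2.54 CPM in TG and 0 to 2.25 CPM in WT. Of the 13, 0 passed the edgeR test and 0 were called by DESeq2, against 2.03% of all 8070 genes called, 0.942% lower and 1.09% higher. An unadjusted edgeR p under 0.05 was reached by 1 gene of the 13, Irf1, against 942 of all 8070 genes. Irf1 had 16.1, 19.6 and 26.5 CPM (lowest, median, highest) in TG and 21.1, 25.6 and 40.1 CPM in WT. Its groups overlapped, and its log2 difference was -0.44 (SE 0.14, edgeR adjusted p = 0.0897). Class I genes could be measured in muscle, where B2m had 264 to 461 CPM in TG and 267 to 458 CPM in WT, with a difference of 0.09 (SE 0.10, edgeR adjusted p = 0.826). H2-K1 differed by 0.18 (SE 0.12), Igtp by 0.09 (SE 0.16), Gbp7 by -0.24 (SE 0.15) and Iigp1 by -0.26 (SE 0.20), and the remaining tested genes lay between -0.24 and 0.29. Of the upstream genes the kinase Jak2 was lower in TG muscle, at 82.2 ± 10.2 CPM in TG and 109 ± 11.1 CPM in WT (SD, n = 10 each), a difference of -0.40 (SE 0.08, edgeR adjusted p = 0.00387). Library totals in quadriceps were 959980 to 2613672 counts, and a count of 0 allows up to 1.15 to 3.13 CPM in a library.

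The tissues carried the markers of their labels. The summed level of 6 adipocyte markers was 28802 to 37673 CPM in TG and 30058 to 40097 CPM in WT pgWAT at 6 h, and that of 6 skeletal muscle markers was 39398 to 46192 CPM in TG and 31283 to 55425 CPM in WT quadriceps. Some markers also differed with the genotype in pgWAT at 6 h, and their part in the interferon set was not tested. Over all genes 14.4% were called at 6 h, and in 3.93% every TG library lay above every WT library. The summed muscle markers were 61.6 to 120 CPM in TG and 22.5 to 50.5 CPM in WT without overlap. Of the 6, 2 were tested, and Acta1, muscle actin, was higher (1.26, edgeR adjusted p = 0.00602), with the other at -0.08. Of 6 adipocyte markers 1 was called, the lipid droplet gene Cidec, which was higher (0.38, edgeR adjusted p = 0.00279). In that list 4 of 6 were below 0, with a median of -0.02. Of 7 mesothelial markers 1 was called, Wt1, which was lower (-0.70, edgeR adjusted p = 0.0258), and 6 were below 0, with a median of -0.16. Of 3 inducible heat shock genes Dnajb1 was higher (0.78, edgeR adjusted p = 0.00159) and Hspa1b was lower (-0.53, edgeR adjusted p = 0.0120). Liver or duct RNA was over 10 times the median of the set in 3 TG and 2 WT libraries at 1 h and in TG 2 at 6 h, and inducible heat shock genes in WT 2 and WT 10 of quadriceps. WT 2 also had 250.1 CPM of liver genes, against a WT median of 0.325 CPM. Neutrophil genes summed to 382 CPM in TG 5 and 95.5 CPM in TG 2 of quadriceps, against a TG median of 6.98 CPM, and these 2 libraries were left out only singly, with 0 genes of the set called each time. Without the libraries high in liver, duct or heat shock genes the counts of called genes were 17 at 6 h, 0 at 1 h, 0 in quadriceps and 13 for the interaction. For TG replicate 10 of quadriceps the labels name 1 h in one entry and a clamp in the title, and the title was followed.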

How the data were processed

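The files were tables of raw gene counts, deposited by the authors as whole numbers without normalization. STAR 2.7.10, cutadapt 1.18, UMI-tools 1.1.2 and bcl2fastq 2.20.0.422 are named in the submitters' processing notes, beside GRCm39 and GRCm38, without role or order. The counting program, its strand setting, the annotation and the build of each table, and whether molecular identifiers were collapsed, are not given in the sources used here. Where they were not collapsed, the limits given for genes without counts cover counting error only. SE comes from the fits and SD from the libraries, so both include the spread between libraries. Gene rows held a mean of 99.8% of the counts of a library at 6 h, 65.3% at 1 h and 74.9% in quadriceps, and other rows (unassigned reads, spike-ins) were left out. Symbols of the 6 h table were joined to the other tables by gene identifier, and positions come from GENCODE vM21 on GRCm38.

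Each set was fitted alone as TG minus WT in edgeR 4.0.16 (R 4.3.3) by its robust quasi-likelihood test after TMM normalization and a filterByExpr filter on genotype, and p-values were adjusted by Benjamini-Hochberg over all genes tested, with a threshold of 0.05. The interaction was fitted over both pgWAT sets. Levels are CPM after TMM scaling, and fold changes are those of the fits. SE is the log2 change over the root of F. The scripts were tested on simulated data. Alternatives were DESeq2 1.42.0, other size factors, no filter, a replicate block, a factor from the library number, and leaving out each library or those with foreign RNA. No libraries were alike within sampling noise.

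All 37 genes were reported, with lowest, median and highest levels for up to 3 genes of each role by smallest p at 6 h and for each gene called elsewhere, and of other lists up to 3 genes by smallest p among those called. The genes, lists and tests were chosen with earlier results of these data known. Of the list of interferons, receptors and kinases, 1 gene is not reported here, and no count over that list is given at 6 h.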

Additional observations from a re-analysis of the deposited data

Results flagged for a closer look

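Levels of a single library stood apart from their group (Dixon's test at the 95% level) in 14 of 170 groups of libraries tested, where chance gives about 1 in 20, or 8.5. At 6 h the library TG 1 was high in Irf8 (67.1 CPM, next 38.02) and Psmb8 (75.7 CPM, next 59.8), and TG 5 was high in Rsad2 (45.8 CPM, next 31.6). WT 5 was high in Gbp7 (142 CPM, next 112), Ifit1 (46.6 CPM, next 15.7), Ifit3 (28.3 CPM, next 13.5) and Isg15 (21.5 CPM, next 11.4), and WT 2 was low in Psmb9 (43.9 CPM, next 50.2). At 1 h TG 9 was high in Oasl2 (43.9 CPM, next 22.1) and Tap1 (119 CPM, next 77.2), and WT 1 was high in Cd274 (27.6 CPM, next 14.7). In quadriceps TG 8 was high in Irf8 (22.5 CPM, next 15.0), TG 4 in Tapbp (35.9 CPM, next 28.2) and WT 1 in Tapbp (42.1 CPM, next 26.9).

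The genotype difference at 6 h differed from that at 1 h by the interaction test in 11 genes, with log2 values of -1.72 in Gbp5, -1.68 in Cd274, -1.63 in Iigp1, -1.37 in Ifi47, -1.32 in Gbp9, -1.32 in Igtp, -1.26 in Irgm2, -1.06 in Gbp3, -0.88 in Gbp7, -0.76 in Gbp2 and -0.67 in Irf1. Kit and sequencing run change with the time, and their part in these values cannot be told apart from that of time.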

How the results depend on the processing

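The number of genes of the set called at 6 h was 17 to 18 over 5 alternatives and 16 to 19 when each library was left out in turn. For the interaction these ranges were 11 to 14 and 10 to 13. At 1 h and in quadriceps the count was 0 in every fit. No fitted difference that was called reversed in any of these fits. Replicate numbers were not shown to pair the libraries. Same-number r ran from -0.13 to 0.14 at 6 h, -0.18 to 0.38 at 1 h and -0.18 to 0.20 in quadriceps. It was over 0.1 in 1 of 6, 4 of 9 and 3 of 10 pairs, and 2, 2 and 1 TG libraries correlated best with their own number. With the replicate block 18 genes were called at 6 h (Isg15 lost, edgeR adjusted p = 0.0540, Stat2 and Nlrc5 gained). For the interaction 14 were called (Nlrc5, Psmb8 and Tap1 gained), and 0 at 1 h and in quadriceps. Over single genes and refits at 6 h, 7 lost a call, all of them of Isg15, 10 gained one and 595 kept their side of the threshold. For the interaction 2 lost a call, both of Gbp2, 18 gained one and 1240 kept theirs. DESeq2 size factors moved the median of all genes by at most 0.01 on the log2 scale. Library totals were lower at 1 h and in quadriceps than at 6 h, and the part of depth in the counts of 0 there, like the cause of the lost calls, was not tested.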

Other observations

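Tap2 was spread more widely than Tap1 between the libraries at 1 h. At 1 h Tap2 had 0, 17.1 and 34.9 CPM (lowest, median, highest) in TG and 2.18, 11.4 and 37.2 CPM in WT. The SE of its log2 difference was 0.63, against 0.16 for Tap1. Library TG 6 held 4 counts of Tap2 among 2764836 and TG 4 held 63 among 1782931, and the part of depth was not tested. In quadriceps Tap2 had 0 to 16.1 CPM in TG and 0 to 6.76 CPM in WT. At 6 h Tap2 had 54.1 to 61.6 CPM in TG and 67.6 to 80.6 CPM in WT. Levels are not compared between these sets.

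Promoter matches were not limited to the genes that were lower at 6 h. Of the 14 genes with a window that were lower, 7 held an ISRE match and 6 a GAS match, and 4 held both. Of the 18 with a window that did not pass the test, 8 held an ISRE match and 4 a GAS match, and 1 held both.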
